A study of Homo sapiens with 6 samples.

Results

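The 10 genes described here are the core of the transforming growth factor beta (TGF-β) pathway: the ligands TGFB1, TGFB2 and TGFB3, the receptors TGFBR1, TGFBR2 and TGFBR3, and the intracellular signal carriers SMAD2, SMAD3, SMAD4 and SMAD7. They were chosen by name, by matching the gene identifiers of the count table without their version to these symbols, and all 10 were found among 60649 gene rows. A TGF-β ligand is secreted in a latent form and, once released, binds the type II receptor TGFBR2, which then phosphorylates the type I receptor TGFBR1. TGFBR1 phosphorylates SMAD2 and SMAD3, which join SMAD4 and enter the nucleus to change transcription, while SMAD7 is induced by the signal and shuts the receptor down. In epithelial cells the pathway is known both for holding back growth and for driving epithelial-mesenchymal transition, in which E-cadherin is lost.

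Bulk mRNA was sequenced from OVCAR5, an established human epithelial ovarian cancer cell line, transduced with lentivirus that carried either METTL3 or no insert and then selected with puromycin. METTL3 is the catalytic subunit of the enzyme complex that places N6-methyladenosine (m6A) on mRNA. There were 3 METTL3 libraries and 3 empty vector libraries, each numbered 1 to 3. The control is called parental in one place of the labels and empty vector in another, no drug is named for any library, and no source used here says that the libraries of a group came from separate cultures, so that p-values measure only the spread between these libraries, which may be technical. Each group is a stably transduced line, and the labels do not say from how many transductions or clones it came.

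Total counts were between 96633925 and 125463386 per library. Levels are given as CPM, counts per 1e6 of a library size that was adjusted by the TMM method of edgeR. METTL3 itself was at 152, 166 and 175 CPM in the METTL3 libraries, in the order of their replicate numbers, and at 80.6, 68.6 and 71.6 CPM in the vector libraries, so that the libraries matched their labels. Reads of the lentiviral copy and of the gene itself cannot be told apart in this count. The libraries numbered 1 stood apart from the others in both groups. Over all genes tested, the deviation of METTL3 replicate 1 from its group mean correlated with that of vector replicate 1 at 0.334 and with those of vector replicates 2 and 3 at -0.191 and -0.286, given as a description over genes. Vector replicate 1 held the lowest value of the 6 libraries for 24.7% of the 22038 genes tested and the highest for 30.1%. For this reason the members are compared on all 6 libraries and on replicates 2 and 3 of each group. The epithelial markers EPCAM, KRT7, KRT8, KRT18, KRT19 and CDH1 together were at 7506 to 8446 CPM with METTL3, against 6018 to 9492 CPM with the vector. On all 6 libraries edgeR called none of these 6 markers (adjusted p from 0.170 to 0.965). In replicates 2 and 3, where 6.66% of all genes were called as higher, edgeR called all 6 markers as higher with METTL3. Their log2 fold changes there were from 0.23 for KRT8 to 0.91 for CDH1. Their part in the differences of the members and pathway genes in those replicates was not tested. Of the markers of other cell types, DCN of fibroblasts, PTPRC, CD3E and CD68 of immune cells, and KDR and EMCN of endothelium were under 0.1 CPM in every library. CD68 shares 81.6% of its exonic bases with another gene on the same strand. Reads over both genes may have been left out, so its low value does not show that it is absent. The fibroblast list together was at 17.6 to 20.2 CPM with METTL3, against 9.32 to 20.4 CPM with the vector, mostly COL1A1, and the immune list at 35.9 to 47.9 against 44.5 to 64.2 CPM, from CD14 and LYZ. LYZ was lower with METTL3 in replicates 2 and 3 (-0.92, edgeR adjusted p = 3.73e-07). It is in a gene list that the study chose on these libraries together with separate METTL3 knockdown libraries.

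Because METTL3 methylates adenosines within a short consensus, of which GGACT is the preferred form, the GGACT nearest to the stop codon in the transcript of a member is shown for the 4 members with an unadjusted p under 0.05 in replicates 2 and 3 of each group and for SMAD4, whose site is the closest to a stop codon. Sequences are on the transcript strand of GRCh38, GGACT is in capitals, and no methylation was measured in these libraries.
TGFBR2, 3' UTR, chr3:30692282-30692302, forward strand: tttctcctGGACTtttcattt
TGFBR1, coding sequence, chr9:99144807-99144827, forward strand: cagacttaGGACTggcagtaa
TGFB1, 3' UTR, chr19:41330904-41330924, reverse strand: tggagagaGGACTgcggatct
TGFB2, coding sequence, chr1:218346918-218346938, forward strand: agcaccagGGACTtgctccag
SMAD4, 3' UTR, chr18:51078500-51078520, forward strand: aggatggtGGACTacaaaata
The TGFBR2 site lies 693 bases after the stop codon and the SMAD4 site 43 bases after it. The TGFBR2 transcript held 5 GGACT, of which 4 lay in the 3' UTR, a density of 1.10 per kb against a median of 0.925 per kb over 20046 coding transcripts, and TGFB1 held 4 (1.44 per kb). TGFB2 held 1 in 5868 bases (0.17 per kb), which is a higher density than in 12.5% of coding transcripts, and TGFBR1 held 3 (0.462 per kb). The highest number, 28, was in SMAD2, whose annotated transcript has a 3' UTR of 32870 bases. At least 1 GGACT was found in 87.8% of coding transcripts, so that a match does not set a gene apart.

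The promoter of TGFBR2 is shown because this receptor was the member with the strongest difference between the groups. The window is chr3:30606351-30606650 on the forward strand of GRCh38.p14, 250 bases before and 50 after a RefSeq transcription start, and capitals mark GGGCGG (the core of a GC box, bound by SP1) and TGAGTCA (the AP-1 motif TGACTCA read on the other strand).
TGFBR2 promoter: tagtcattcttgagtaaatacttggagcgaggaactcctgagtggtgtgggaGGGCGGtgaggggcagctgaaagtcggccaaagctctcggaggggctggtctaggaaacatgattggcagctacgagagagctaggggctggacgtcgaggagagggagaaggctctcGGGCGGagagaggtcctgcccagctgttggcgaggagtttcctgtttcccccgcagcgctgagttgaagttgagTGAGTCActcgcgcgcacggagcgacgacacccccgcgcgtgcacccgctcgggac
Both motifs were searched on both strands. GGGCGG occurs in 45.0% of 35116 promoter windows of this length and TGACTCA in 4.9%. CAGACA, a SMAD-binding sequence, occurs in 16.9% of the windows and not in the 300 bases shown, which says only that these letters are absent there.

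To compare the members with one another, levels were divided by the length of merged exons. SMAD3 had the highest level at 59.7 ± 9.79 CPM per kb (SD, n = 6 libraries of both groups), followed by TGFB1 at 32.8 ± 8.64 and TGFBR2 at 32.0 ± 6.11. Within every library SMAD3 was above TGFB1. Their ranges over the 6 libraries overlapped only because SMAD3 in vector replicate 1 (41.3) was under TGFB1 in vector replicate 2 (41.7). The ranges of TGFB1 and TGFBR2 also overlapped, and their order differed between libraries. By group means TGFBR2 (37.3 CPM per kb) was above TGFB1 (32.5) with METTL3, and TGFB1 (33.1) above TGFBR2 (26.8) with the vector. TGFB2 at 12.1 ± 2.24 CPM per kb and TGFBR1 at 5.88 ± 0.694 each stood clear of the members above and below. TGFBR3 (2.21 ± 0.476), SMAD4 (1.41 ± 0.143), SMAD7 (1.35 ± 0.0907) and SMAD2 (1.23 ± 0.0854 CPM per kb) formed a lower group in which the range of each overlapped with the next. TGFBR3 did so through vector replicate 1 alone (1.26), as its other libraries were at 2.24 to 2.48, against at most 1.52 for SMAD4. TGFB3 was the lowest at 0.561 ± 0.0771. SMAD3 lay at the 97.0 percentile of all genes tested and TGFB3 at the 35.2 percentile.

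**Figure D1:**
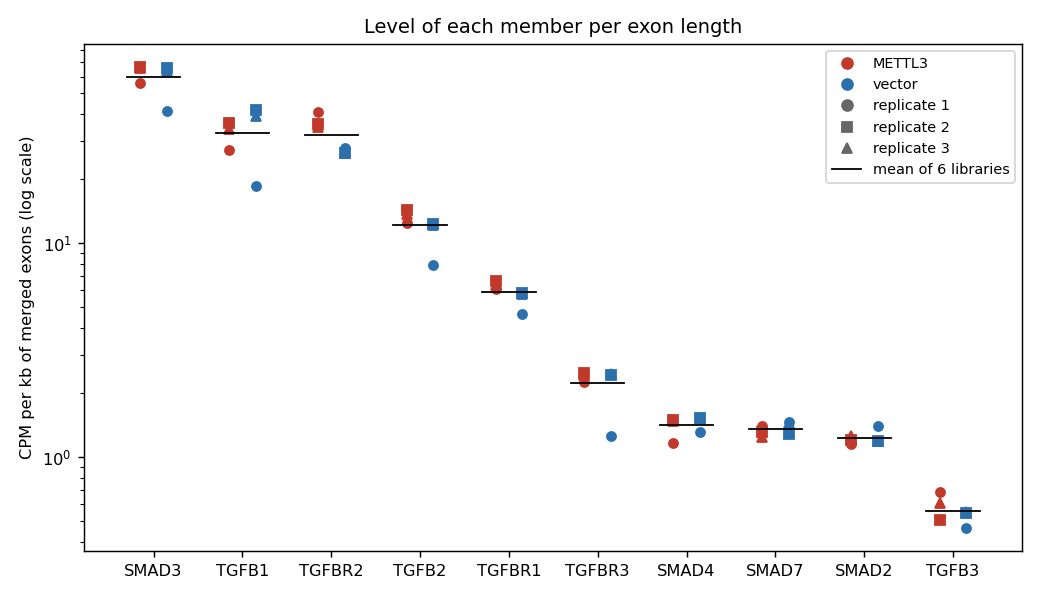
CPM per kb of merged exons (log axis) of the 10 members in each library, METTL3 in red and vector in blue, with a marker shape for each replicate number and a line at the mean of the 6 libraries. SMAD3 is highest at a mean of 59.7 and TGFB3 lowest at 0.561, and vector replicate 1 lies below the other libraries for SMAD3, TGFB1, TGFB2 and TGFBR3.

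The place of SMAD2 and SMAD4 in this order depended on the length used, because their merged exons are long (36.43 kb and 19.61 kb). Per kb of coding sequence SMAD2 was at 31.8 ± 2.22 CPM, rank 5 among the members rather than rank 9, and SMAD4 was at 16.7 ± 1.69. SMAD3 remained first (468 ± 76.7), and TGFBR2 (129 ± 24.6) came before TGFB1 (91.3 ± 24.1). TGFB3 remained last at 2.37 ± 0.325 CPM per coding kb.

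Across all 6 libraries, 6 members were higher with METTL3 and 4 lower, with a median log2 fold change of 0.17 against -0.02 over all genes tested. At an adjusted p under 0.05, edgeR's quasi-likelihood test called 0 of the 10 members and 0 of 22038 genes (0%). The overexpressed gene METTL3 was also not called, at a log2 fold change of 1.16 (edgeR adjusted p = 0.072), whereas DESeq2 called it (adjusted p = 1.36e-14). The 0 calls of edgeR therefore do not show that nothing changed. TGFBR2 was the 1 member with an unadjusted p under 0.05, which 8.3% of all genes had. DESeq2 on the same libraries called 1 member, again TGFBR2 as higher, and 1.27% of all genes (0.876% as higher). The groups did not overlap for 3 members (TGFB2, TGFBR1 and TGFBR2), each higher with METTL3, where 8.47% of all genes tested did so in that direction, and 0 members did so in the other direction, where 8.93% of genes did. In replicates 2 and 3 of each group edgeR called 3 members, TGFB2 and TGFBR2 higher and TGFB1 lower, where 15.2% of all genes were called (6.66% higher and 8.59% lower). DESeq2 called these same 3 members there, with 14.7% of all genes called (6.99% higher and 7.67% lower). With the GC and length trend of each library removed, edgeR called TGFB2, TGFBR1 and TGFBR2 there, all higher, with 22.3% of all genes called (12.7% higher). Without vector replicate 1 alone, edgeR called 0 members and 1.62% of all genes, and DESeq2 was not run on those 5 libraries. In replicates 2 and 3 the median log2 fold change of the members was 0.02, against -0.003 over all genes. METTL3 was above the vector in all 3 replicate numbers for 4 members (TGFB2, TGFBR1, TGFBR2 and SMAD3), as for 19.6% of all genes. Vector replicate 1 was the lowest of the 6 libraries for 6 of the 10 members (TGFB1, TGFB2, TGFB3, TGFBR1, TGFBR3 and SMAD3) and the highest for SMAD2 and SMAD7.

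**Figure D2:**
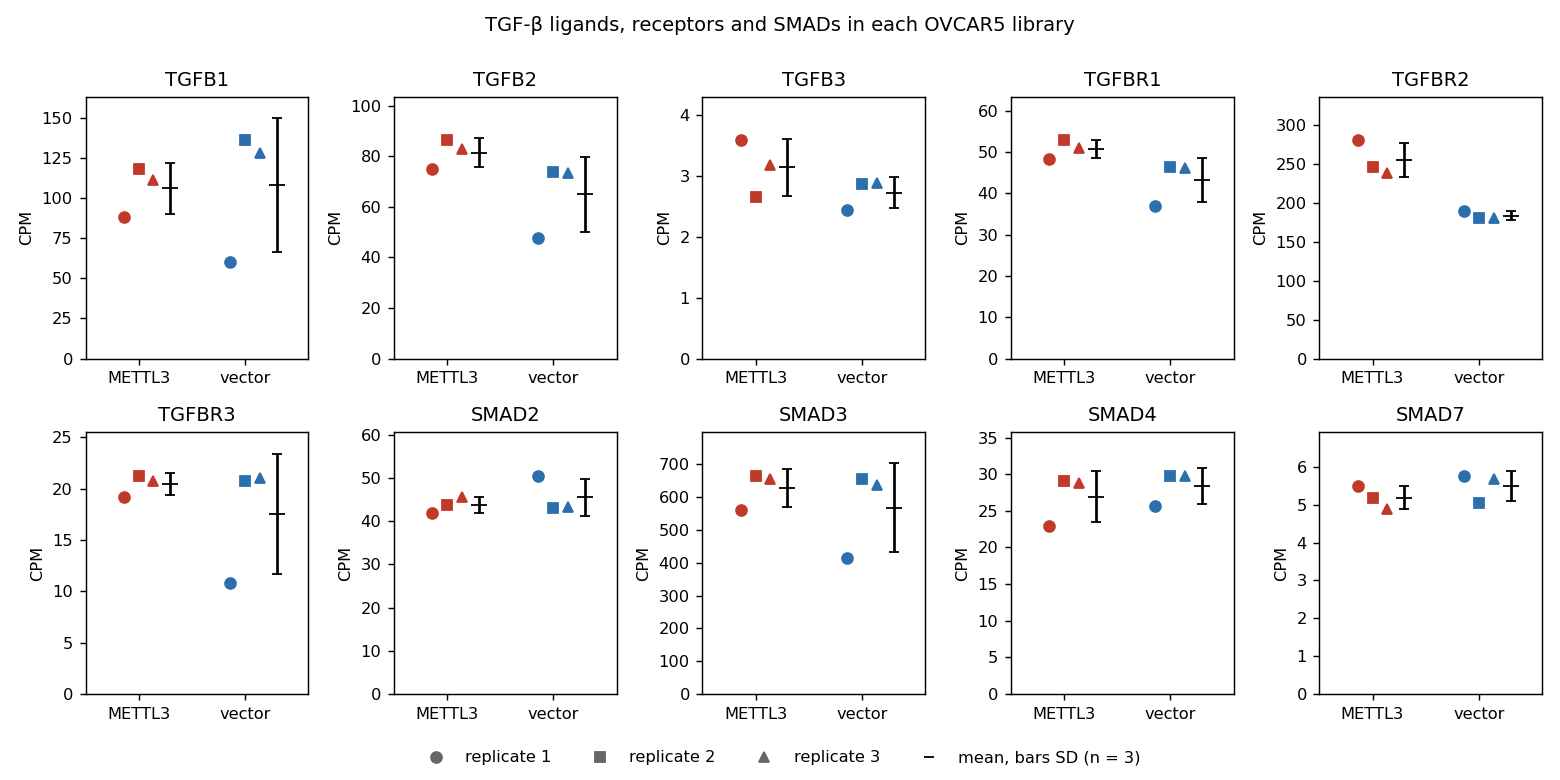
CPM of each member in each library (vertical axes start at 0), METTL3 in red and vector in blue, with a marker shape for each replicate number and the mean with SD (n = 3) beside it. TGFBR2 lies between 239 and 280 CPM with METTL3 and between 180 and 190 CPM with the vector, while for TGFB1 and SMAD3 the spread is widest in the vector group, where replicate 1 is low.

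TGFB1 (ENSG00000105329.11, chr19:41301587-41353922, reverse strand) encodes the TGF-β ligand most widely expressed in adult tissues. Its level was 88.4, 118 and 112 CPM in the METTL3 libraries (replicates 1, 2 and 3) and at 60.1, 136 and 128 CPM in the vector libraries. Both replicate 1 libraries were low, vector replicate 1 was the lowest of all, and the groups overlapped. The means were 106 ± 15.7 and 108 ± 41.7 CPM (SD, n = 3 each), and the log2 fold change on all 6 libraries was -0.03 (SE 0.281, edgeR adjusted p = 0.986). The direction differed between replicate numbers. METTL3 was above the vector by 0.56 on the log2 scale in replicate 1 and below it, at -0.20, in each of replicates 2 and 3. In those replicates TGFB1 fell by 0.20 on the log2 scale (SE 0.0558, edgeR adjusted p = 0.0238). The call was lost when the trend of each library with GC content and length was removed (-0.11, adjusted p = 0.0802). Exons of HNRNPUL1 on the other strand cover 6.59% of the exonic bases of TGFB1, and HNRNPUL1 was at 290 to 393 CPM, lowest in vector replicate 1 as TGFB1 was. Whether the counting used strand is not given in the sources used here, and its part in these values was not tested.

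TGFB2 (ENSG00000092969.12, chr1:218345336-218444619, forward strand) encodes the ligand that depends most on the co-receptor TGFBR3 to reach TGFBR2. It was at 75.0, 86.3 and 82.9 CPM in METTL3 replicates 1 to 3 and at 47.7, 73.9 and 73.2 CPM in vector replicates 1 to 3. Every METTL3 library was above every vector library, although METTL3 replicate 1 lay close to vector replicates 2 and 3. The log2 fold change was 0.33 (SE 0.175, edgeR adjusted p = 0.637), and the means were 81.4 ± 5.79 and 64.9 ± 14.9 CPM (SD, n = 3 each). An exact two-sided permutation test gave p = 0.1, the smallest it can give with 3 against 3. TGFB2 rose by 0.20 in replicates 2 and 3 (SE 0.0540, edgeR adjusted p = 0.0208), and it rose by 0.24 with the GC and length trend removed (adjusted p = 0.000615). Without vector replicate 1 the log2 fold change on the other 5 libraries was 0.15 (adjusted p = 0.452). TGFB2-OT1 on the same strand covers 22.66% of the exonic bases and was listed at 0 counts in all 6 libraries. Reads over both genes may have been left out, so this 0 does not show that TGFB2 kept its reads there. TGFB2-AS1 on the other strand had at most 26 counts.

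TGFB3 (ENSG00000119699.8, chr14:75958097-75983011, reverse strand) was the least abundant ligand, with 231 to 404 counts per library. It was at 3.58, 2.66 and 3.17 CPM with METTL3, against 2.44, 2.86 and 2.88 CPM with the vector in replicates 1 to 3. The groups overlapped, and METTL3 was higher in replicates 1 and 3 and lower in replicate 2. The log2 fold change was 0.20 (SE 0.191, edgeR adjusted p = 0.761) on all 6 libraries and 0.02 (SE 0.146, adjusted p = 0.962) in replicates 2 and 3.

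TGFBR2 (ENSG00000163513.19, chr3:30606601-30694142, forward strand) encodes the receptor that binds the ligand first. Its level was 280, 247 and 239 CPM in the METTL3 libraries (replicates 1, 2 and 3) and at 190, 180 and 181 CPM in the vector libraries. All 3 METTL3 libraries were above all 3 vector libraries, and vector replicate 1 lay close to the other vector libraries. In bulk RNA, more RNA per cell and more cells with the RNA cannot be told apart. The means were 255 ± 22.0 and 184 ± 5.36 CPM (SD, n = 3 each), a fold change of 1.39. METTL3 was higher by 0.56, 0.45 and 0.40 on the log2 scale in replicates 1, 2 and 3. On all 6 libraries the log2 fold change was 0.48 (SE 0.114, unadjusted p = 0.00267), and it did not pass edgeR's test over all genes (adjusted p = 0.395). DESeq2 gave 0.49 (SE 0.126, adjusted p = 0.0138), so that the call on all 6 libraries rests on the tool. TGFBR2 rose by 0.43 in replicates 2 and 3 (SE 0.0512, edgeR adjusted p = 5.03e-05), the member with the smallest p. Over 18 alternatives the log2 fold change stayed between 0.42 and 0.54.

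**Figure D3:**
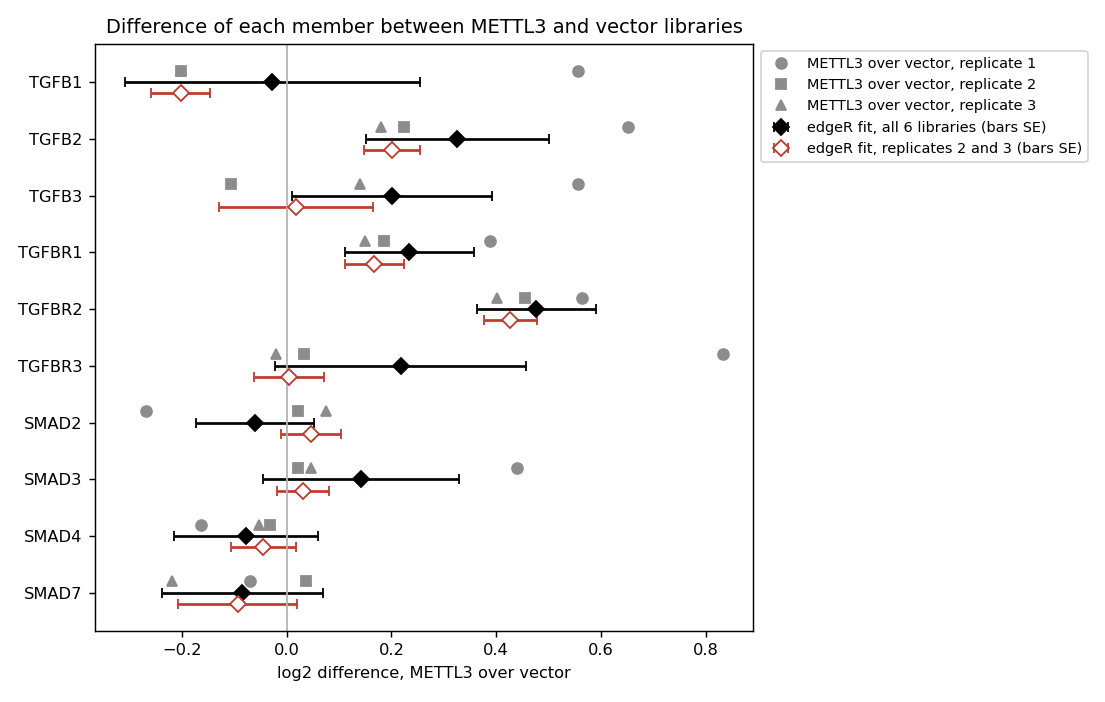
Log2 difference of METTL3 over vector for each member: grey points are the 3 replicate numbers, black diamonds the edgeR fit of all 6 libraries and open red diamonds the fit of replicates 2 and 3, with bars of 1 SE. TGFBR2 lies between 0.40 and 0.56 in every replicate number, whereas for TGFB1 replicate 1 (0.56) lies on the other side of 0 from replicates 2 and 3 (-0.20).

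TGFBR1 (ENSG00000106799.13, chr9:99104038-99154192, forward strand) encodes the kinase that TGFBR2 activates. It was at 48.5, 52.9 and 51.1 CPM with METTL3, against 37.0, 46.5 and 46.0 CPM with the vector in replicates 1 to 3. Every METTL3 library was above every vector library, and vector replicate 1 was the lowest. The log2 fold change was 0.23 (SE 0.123, edgeR adjusted p = 0.636; exact permutation p = 0.1), and it was 0.14 without vector replicate 1 (adjusted p = 0.439). The value in replicates 2 and 3 was 0.17 (SE 0.0563) and missed the threshold (edgeR adjusted p = 0.0627), as it did with DESeq2 (adjusted p = 0.0503), and it passed as higher with the GC and length trend removed (0.20, adjusted p = 0.00435).

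TGFBR3 (ENSG00000069702.11, chr1:91680343-91906335, reverse strand), also called betaglycan, is a co-receptor that presents ligand to TGFBR2. It was at 19.2, 21.3 and 20.8 CPM with METTL3, against 10.8, 20.8 and 21.0 CPM with the vector in replicates 1 to 3. Of the 6 libraries, 5 lay between 19.2 and 21.3 CPM and vector replicate 1 stood alone below them. The log2 fold change of 0.22 on all 6 libraries (SE 0.239, edgeR adjusted p = 0.798) became -0.04 without vector replicate 1 (adjusted p = 0.875), and it was 0.01 in replicates 2 and 3 (SE 0.0673, adjusted p = 0.978). TGFBR2 and TGFBR3 therefore had unlike values in vector replicate 1. The ratio of their CPM per kb of merged exons was 22.0 there and 10.8 to 18.3 in the other 5 libraries.

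Of the receptor-activated SMADs, SMAD3 (ENSG00000166949.17, chr15:67063763-67195173, forward strand) binds DNA directly. It was at 561, 665 and 656 CPM with METTL3, against 414, 656 and 636 CPM with the vector in replicates 1 to 3. Replicates 2 and 3 of both groups lay close together and vector replicate 1 was low. The log2 fold change was 0.14 (SE 0.188, edgeR adjusted p = 0.834) on all 6 libraries, -0.04 without vector replicate 1 and 0.03 (SE 0.0496, adjusted p = 0.753) in replicates 2 and 3. SMAD2 (ENSG00000175387.16, chr18:47808957-47931146, reverse strand), its closest relative, was at 42.0, 43.7 and 45.6 CPM with METTL3, against 50.6, 43.1 and 43.3 CPM with the vector. Here vector replicate 1 was the highest library, the opposite of SMAD3. The log2 fold change of SMAD2 was -0.06 (SE 0.113, edgeR adjusted p = 0.888), and 0.05 (SE 0.0571, adjusted p = 0.668) in replicates 2 and 3.

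SMAD4 (ENSG00000141646.14, chr18:51028528-51085045, forward strand), the partner shared by the TGF-β and BMP branches, was at 22.9, 29.1 and 28.7 CPM with METTL3, against 25.6, 29.7 and 29.8 CPM with the vector in replicates 1 to 3. Both replicate 1 libraries were low. METTL3 was below the vector in all 3 replicate numbers, as for 20% of all genes tested, by 0.16, 0.03 and 0.05 on the log2 scale, and the log2 fold change was -0.08 (SE 0.137, edgeR adjusted p = 0.879) on all 6 libraries and -0.04 (SE 0.0616, adjusted p = 0.719) in replicates 2 and 3. SMAD7 (ENSG00000101665.10, chr18:48919853-48950965, reverse strand), the inhibitory member and itself a target of the pathway, was at 5.50, 5.19 and 4.88 CPM with METTL3, against 5.77, 5.05 and 5.68 CPM with the vector. The groups overlapped, and the log2 fold change was -0.08 (SE 0.153, edgeR adjusted p = 0.883) on all 6 libraries and -0.09 (SE 0.114, adjusted p = 0.670) in replicates 2 and 3. Its counts were 492 to 643 per library.

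Ratios within a library do not depend on how libraries are scaled, and 4 were compared between the groups. They were taken from CPM per kb of merged exons, so their size depends on the exon lengths used. TGFB1 to TGFB2 was 2.18, 2.54 and 2.49 with METTL3 and 2.33, 3.41 and 3.25 with the vector in replicates 1 to 3. The groups overlapped through vector replicate 1 alone (exact two-sided permutation p = 0.3, Benjamini-Hochberg adjusted p = 0.6). TGFBR2 to TGFBR1 was 6.75, 5.44 and 5.46 with METTL3 and 5.97, 4.52 and 4.58 with the vector, and also overlapped through vector replicate 1 (exact p = 0.3, adjusted p = 0.6). TGFBR2 to TGFBR3 and SMAD3 to SMAD2 overlapped as well (exact p = 0.9, adjusted p = 0.9 for each).

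How far members varied together is given as a description over 6 libraries, with no test, since the values share the low vector replicate 1. The correlations of log2 CPM were 0.99 for TGFB2 with TGFBR1, 0.975 for TGFBR3 with SMAD3 and 0.958 for TGFB1 with SMAD3, whereas TGFBR2 had 0.155 with SMAD3 and -0.115 with TGFB1. TGFB1 had the largest spread of the members (SD of log2 CPM 0.44). The genes outside the members whose log2 CPM was most like it were WDR26 (Pearson r = 0.9989), TRIB1 (0.9989) and CD302 (0.9982), and 2.97% of 22028 genes had r over 0.95 with it, so that such values were common here.

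The other genes of the pathway were read from 4 lists of 74 genes, of which 72 were tested. They cover the release of ligand from its latent form, other receptors and SMADs, modulators of the signal, and target genes. On all 6 libraries 39 were higher and 33 lower with METTL3. edgeR called 0 of them at an adjusted p under 0.05, 7 (9.72%) had an unadjusted p under 0.05, and DESeq2 called 0. In replicates 2 and 3 of each group edgeR called 26 of 72 (36.1%), 10 higher and 16 lower, beside 15.2% of all genes tested. With the GC and length trend removed there, 32 (44.4%) were called, 16 higher and 16 lower, beside 22.3% of all genes tested. No test of these differences in share was made.

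**Figure D4:**
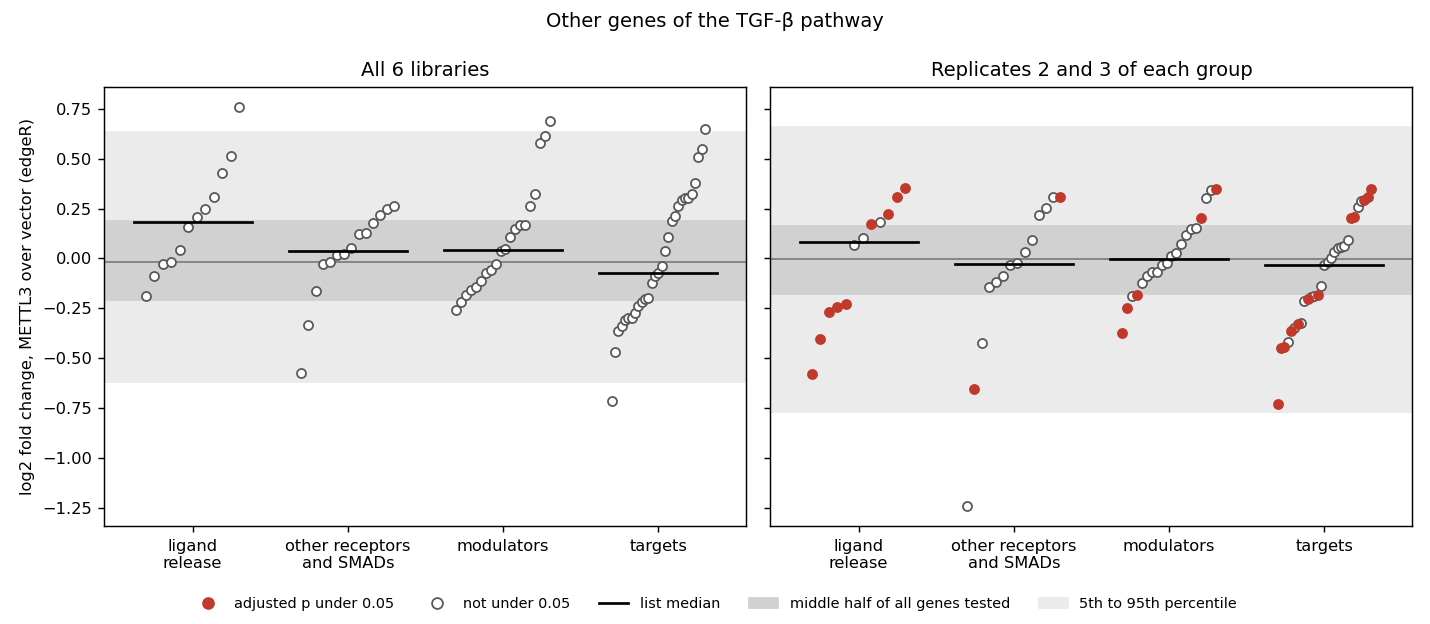
edgeR log2 fold change of METTL3 over vector for each gene of the 4 lists, on all 6 libraries (left) and on replicates 2 and 3 (right), with filled points for an adjusted p under 0.05, a black line at the list median, and grey bands for the quartiles and outer percentiles of all genes tested. No point is filled on the left, and on the right 4 genes are filled above 0 and 5 below 0 for ligand release.

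The 12 genes of ligand release had a median log2 fold change of 0.18 on all 6 libraries, against -0.02 over all genes, with 8 higher and 4 lower and 0 called. In replicates 2 and 3 edgeR called 4 higher and 5 lower (75% of the 12, beside 15.2% of all genes), with a median of 0.09. The lower genes were FURIN, the protease that cleaves the TGF-β precursor, and LTBP1, LTBP2, LTBP3 and LTBP4, of the latent TGF-β binding protein family. LTBP2, for example, was at 19.7, 15.6 and 13.5 CPM with METTL3, against 8.37, 22.8 and 20.5 CPM with the vector, and in replicates 2 and 3 it fell by 0.58 (SE 0.0857, edgeR adjusted p = 0.000327). LTBP3, the LTBP with the highest level, was at 359, 418 and 422 CPM with METTL3, against 219, 511 and 481 CPM with the vector, and there fell by 0.24 (SE 0.0516, adjusted p = 0.00485). With the GC and length trend removed, LTBP3 (-0.11, adjusted p = 0.0864) and LTBP4 (-0.14, adjusted p = 0.0631) were no longer called in these replicates, while FURIN, LTBP1 and LTBP2 were. All 5 of these genes were lowest in vector replicate 1, and their log2 fold changes on all 6 libraries lay between -0.09 and 0.16. The higher genes in replicates 2 and 3 were THBS1, ITGAV, ITGB6 and ITGB8, a matrix protein and integrin subunits that can free the ligand, of which the integrins are named here after their values were seen. THBS1 was at 201, 283 and 284 CPM with METTL3, against 143, 242 and 260 CPM with the vector, and rose by 0.17 in replicates 2 and 3 (SE 0.0540, adjusted p = 0.0469), with 0.25 on all 6 libraries (adjusted p = 0.762). ITGAV was at 290 to 328 CPM with METTL3, against 237 to 263 CPM with the vector. ITGB8 was at 49.6 to 60.6 against 30.1 to 43.7 CPM. Neither overlapped between the groups, as for 8.47% of all genes tested with METTL3 higher. ITGB6 did overlap, at 23.3 to 40.3 CPM with METTL3, against 18.3 to 37.8 CPM with the vector. On all 6 libraries edgeR called none of these integrins (adjusted p = 0.562 for ITGAV, 0.517 for ITGB8 and 0.859 for ITGB6).

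Of the 14 other receptors and SMADs tested, 9 were higher and 5 lower on all 6 libraries, with a median of 0.04, and AMHR2 was too low to test. The calls in replicates 2 and 3 were ENG, lower, and SMAD6, higher, which is 14.3% of the list and close to the 15.2% of all genes. ENG, a co-receptor known from endothelium, was at 22.8, 58.9 and 56.6 CPM with METTL3, against 24.5, 92.7 and 88.6 CPM with the vector. It was low in both replicate 1 libraries, which differed little, and in replicates 2 and 3 it fell by 0.65 (SE 0.0557, edgeR adjusted p = 2.61e-06), against -0.57 on all 6 libraries (SE 0.501, adjusted p = 0.746). The endothelial markers together were at 0.525 to 0.789 CPM with METTL3, against 0.464 to 0.543 CPM with the vector, with all 5 under 1 CPM. SMAD6, an inhibitory SMAD that mainly restrains BMP signaling, was at 93.5, 67.0 and 63.3 CPM with METTL3, against 81.6, 55.1 and 50.1 CPM with the vector, and rose by 0.31 (SE 0.0617, adjusted p = 0.00342), against 0.26 on all 6 libraries (SE 0.217, adjusted p = 0.734). BMPR2, the type II receptor of BMP ligands (METTL3 107 ± 14.4 and vector 94.9 ± 17.6 CPM, SD, n = 3), and SMAD5, a BMP-activated SMAD (102 ± 9.38 and 101 ± 6.76 CPM), were not called in either comparison.

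Among the 20 modulators, 11 were higher and 9 lower on all 6 libraries, with a median of 0.04. Calls of edgeR in replicates 2 and 3 were 2 higher and 3 lower (25% of the list, beside 15.2% of all genes), with a median of -0.01. With the GC and length trend removed there, the calls were 6 higher and 4 lower, where 22.3% of all genes were called. CREBBP, a histone acetyltransferase that SMADs recruit, was at 151, 127 and 108 CPM with METTL3, against 67.5, 92.9 and 91.5 CPM with the vector, without overlap, and rose by 0.35 in replicates 2 and 3 (SE 0.0704, edgeR adjusted p = 0.00435), against 0.61 on all 6 libraries (SE 0.171, adjusted p = 0.439). WWP1, a ubiquitin ligase that acts on TGFBR1, was at 114, 112 and 109 CPM against 128, 133 and 129 CPM, also without overlap, and fell by 0.25 (SE 0.0520, adjusted p = 0.00452), with -0.22 on all 6 libraries (adjusted p = 0.609). BAMBI, a pseudoreceptor that blocks signaling, was at 7.41, 7.20 and 7.08 CPM against 7.50, 9.31 and 9.14 CPM and fell by 0.37 (SE 0.0908, adjusted p = 0.0120), with -0.26 on all 6 libraries (adjusted p = 0.648). FKBP1A, which binds TGFBR1 and keeps it inactive (304 ± 29.7 and 336 ± 10.1 CPM), and STRAP, which stabilises the SMAD7 and receptor complex (167 ± 17.4 and 186 ± 10.9 CPM, SD, n = 3), were not called on all 6 libraries or in replicates 2 and 3. STRAP passed as lower in those replicates with the GC and length trend removed (-0.11, adjusted p = 0.0465).

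The 29 target genes tested did not move one way. On all 6 libraries 13 were higher and 16 lower, with a median of -0.07, and in replicates 2 and 3 edgeR called 5 higher and 7 lower (41.4%, beside 15.2% of all genes), with a median of -0.04. CCN2, a matrix-associated growth factor, was at 44.8, 98.1 and 99.9 CPM against 32.1, 130 and 138 CPM and fell by 0.44 in replicates 2 and 3 (SE 0.0545, edgeR adjusted p = 6.51e-05). Both replicate 1 libraries were far below the others, METTL3 was above the vector there, and on all 6 libraries the log2 fold change was -0.31 (SE 0.505, adjusted p = 0.866). CCN2 is in a gene list that the study chose on these libraries together with separate METTL3 knockdown libraries. Its direction in these libraries is therefore not independent evidence.

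**Figure D5:**
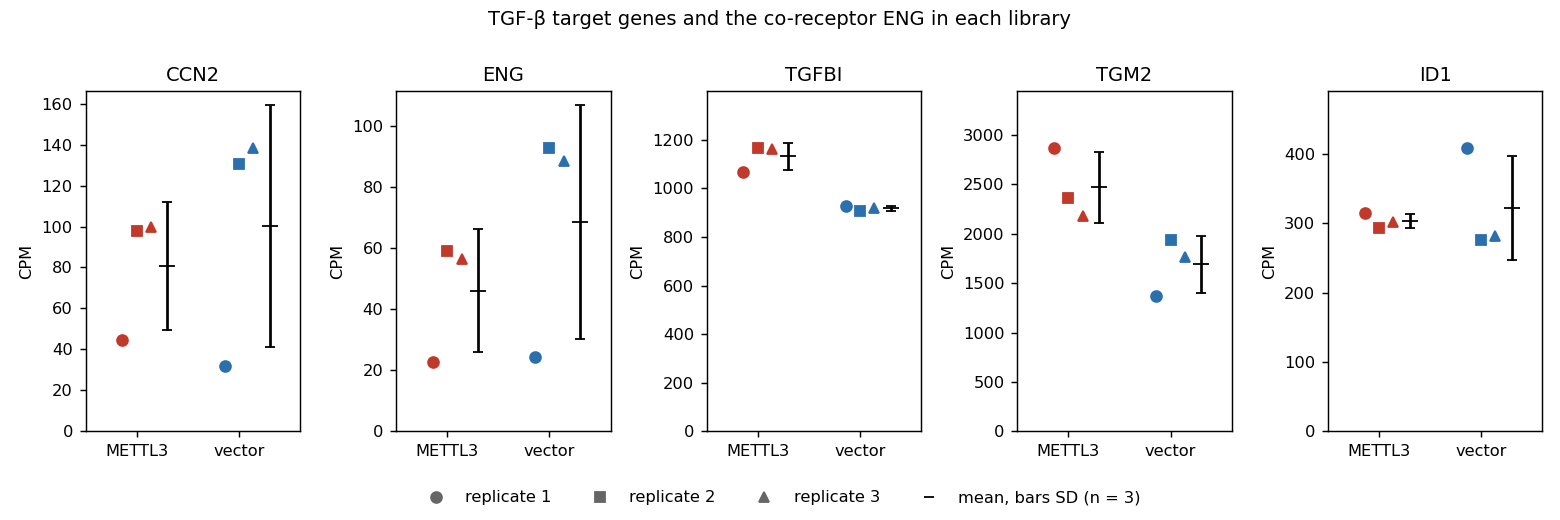
CPM in each library (vertical axes start at 0) of 4 target genes and of the co-receptor ENG, METTL3 in red and vector in blue, with a marker shape for each replicate number and the mean with SD (n = 3). CCN2 and ENG are low in both replicate 1 libraries and lower with METTL3 in replicates 2 and 3, whereas TGFBI and TGM2 are higher with METTL3 in every library.

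TGFBI, a secreted matrix protein first found as a TGF-β-induced gene, went the other way. It was at 1069, 1166 and 1161 CPM with METTL3, against 928, 907 and 918 CPM with the vector, without overlap, and rose by 0.35 in replicates 2 and 3 (SE 0.0488, edgeR adjusted p = 0.000191). TGM2, a protein-crosslinking transglutaminase, was at 2868, 2363 and 2179 CPM against 1368, 1933 and 1769 CPM, also without overlap, and rose by 0.29 (SE 0.0579, adjusted p = 0.00302). ID1, an inhibitor of differentiation induced mainly by BMP signaling, was at 315, 294 and 302 CPM against 409, 276 and 282 CPM, with vector replicate 1 highest, and was called in neither comparison (adjusted p = 0.891 on all 6 libraries and 0.269 in replicates 2 and 3). On all 6 libraries the fit gave TGFBI 0.30 (SE 0.115, edgeR adjusted p = 0.565) and TGM2 0.55 (SE 0.175, adjusted p = 0.517). CDH1, which encodes E-cadherin, is not in the target list. It is 1 of the 6 epithelial markers and is singled out here with the values of all 6 known. It was at 439, 358 and 346 CPM with METTL3, against 201, 184 and 189 CPM with the vector. These did not overlap, as for 8.47% of all genes tested with METTL3 higher. Its log2 fold change was 0.99 on all 6 libraries (edgeR adjusted p = 0.170) and 0.91 in replicates 2 and 3 (adjusted p = 7.46e-08). The other 5 epithelial markers overlapped between the groups, and no link of CDH1 with the pathway was tested.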

How the data were processed

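RNA-seq counts of 6 OVCAR5 libraries were used. The authors trimmed, aligned and counted the reads (fastp, HISAT2, Subread and featureCounts, with hg38, in the submitters' processing notes) and deposited raw counts per gene, without normalization. Versions, the annotation release and the use of strand are not given in the sources used here. The labels describe a stranded TruSeq kit and paired reads, and the study's methods another kit and single reads. Between 67.6% and 70.5% of counts from 1 to 20 were even, so counts divided by 2 were an alternative. All columns of counts were mapped to samples by name.

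Identifiers were matched to GENCODE 44, which named 60507 of 60649 rows and gave positions, exons and transcripts. Promoter windows are from RefSeq (GRCh38.p14), where all 10 members had an entry. With edgeR 4.0.16 (R 4.3.3), the 22038 genes that filterByExpr kept were TMM-scaled and tested with glmQLFit (robust) and glmQLFTest on group alone, with Benjamini-Hochberg adjustment over all genes and a threshold of 0.05. CPM used TMM factors, and log2 CPM a prior count of 2. DESeq2 1.42.0 served as a second tool and is the one named in the study's methods. The functions were tested on simulated counts. With 3 libraries against 3, the smallest p an exact permutation test can give is 0.1.

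The members and lists were chosen with earlier results of these data known. Named genes were the members, METTL3 and, per list, the 3 genes with the highest CPM per kb and the 3 with the smallest p among calls in replicates 2 and 3, plus any called on all 6 libraries (0 were). A gene that this rule names and a marker are not reported here, though the counts of their lists include them. The deviation of each library from its group mean was correlated between groups over genes, which gave 0.334, 0.12 and 0.175 for numbers 1, 2 and 3. Each is over 0.1, and the numbers were used as pairs in the replicate block and in the log2 differences by replicate number. The main fit and the permutation tests did not use them as pairs. The pairing comes from the values, not the labels. Differently numbered libraries reached 0.205 and 0.133, so the pairing is weak beyond replicate 1. Alternatives were DESeq2, RLE and upper-quartile scaling, a minimum of 10 counts in every library, no filter, a threshold of 0.01, counts divided by 2, a replicate block, removal of the GC and length trend of each library (splines, 5 degrees of freedom), each library left out, and replicates 2 and 3 of each group. DESeq2 on those replicates was added after seeing the data. The knockdown libraries were not analysed here.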

Additional observations from a re-analysis of the deposited data

How the results depend on the processing

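The members that kept their direction under all 18 alternatives were TGFB2, TGFB3, TGFBR1, TGFBR2 and SMAD7. Over all genes, calls moved from 0 to 280 with DESeq2, 560 with no filter, 28 with the replicate block and the GC and length trend removed, 3362 in replicates 2 and 3, 4915 there with that trend removed and 3233 there with DESeq2, and ranged from 0 to 367 with 1 library left out (367 without vector replicate 1). Members called moved from 0 to 1 with DESeq2 and to 3 in each of the 3 fits of replicates 2 and 3, and stayed at 0 with each library left out. Pathway genes called moved from 0 to 5 with no filter, 26 in replicates 2 and 3, 32 there with the trend removed and 27 there with DESeq2. The cause was not tested. The replicate block alone, which uses the pairing of numbers, called 0 genes over all genes and changed no call of a member (TGFBR2 adjusted p = 0.235 from edgeR).

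On the log2 scale, signs turned with the block for TGFB1 (0.049, and 0.001 with the trend removed), LTBP2 (0.002), LTBP3 (0.074) and LTBP4 (0.069). LTBP3 was 0.002 with at least 10 counts and 0.002 with counts divided by 2, and LTBP1 was -0.001 with the trend removed. In replicates 2 and 3, with the trend removed there and with DESeq2 there, the values were -0.229, -0.136 and -0.221 for FURIN, -0.405, -0.366 and -0.397 for LTBP1, -0.032, -0.038 and -0.024 for BMPR2, and 0.092, 0.092 and 0.101 for ID1. SMAD2 was 0.047 there and 0.055 with DESeq2. With 1 library left out, ranges that crossed 0 were -0.316 to 0.191 for TGFB1, -0.035 to 0.39 for TGFBR3, -0.071 to 0.02 for SMAD2, -0.042 to 0.281 for SMAD3, -0.146 to 0.045 for SMAD4, -0.052 to 0.356 for FURIN, -0.197 to 0.252 for LTBP1, -0.417 to 0.184 for LTBP2, -0.314 to 0.209 for LTBP3, -0.335 to 0.196 for LTBP4, -0.039 to 0.108 for SMAD5, -0.731 to 0.007 for CCN2 and -0.154 to 0.121 for ID1. TGFB3 had the fewest counts of the members (231 to 404 per library).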
